A study of Mus musculus with 8 samples.

Results

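Matrix metalloproteinases (MMPs), the ADAMTS proteases and the tissue inhibitors of metalloproteinases (TIMPs) are described here in atherosclerotic lesions of mice treated with an antibody to the cytokine interleukin-1β (IL-1β). They were picked by gene symbol alone, as every symbol made of Mmp and a number, Adamts and a number, or Timp and a number. This gave 46 of the 24391 gene symbols counted, namely 23 MMPs, 19 ADAMTS proteases and 4 TIMPs, and 39 of them had at least 10 counts in 4 or more of the 8 libraries and are described in detail. Each library came from 1 animal, and the groups were 4 C57BL/6 mice given the antibody and 4 C57BL/6 mice given immunoglobulin G (IgG) as a control. All 8 had been fed a Western diet for 18 weeks. The design text calls the animals wild type and says that smooth muscle cells were lineage traced. The sources used here do not give the driver of that tracing, another allele, the age of the mice, or the dose and duration of the antibody. The tissue was the lesion of the artery labelled BCA, the brachiocephalic artery, taken as a mixture of cell types. In such bulk tissue fewer cells of a type and less RNA per cell cannot be told apart.

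MMPs and ADAMTS proteases are zinc enzymes that are made as inactive precursors and cut the proteins and proteoglycans of the extracellular matrix. TIMPs bind the active site of these enzymes and block it, so that matrix turnover depends on the balance of enzyme and inhibitor. In plaques they are known for remodelling of the fibrous cap, and IL-1β is a classical inducer of several of them, among them the stromelysins and collagenases, in cultured fibroblasts, chondrocytes and smooth muscle cells. RNA levels say nothing of precursor activation or of inhibitor binding.

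A cluster of 10 MMP genes lies on chromosome 9 of the mm9 build between 7272514 and 7699416, and it holds the collagenases, both Mmp3 and Mmp10, the macrophage elastase Mmp12, and Mmp7, Mmp20 and Mmp27. Promoter windows from RefSeq (GRCm38.p6, 250 bases before to 50 after an annotated start) were matched by symbol for 32 of the 46 genes. They were searched on both strands for TGANTCA, the site of the AP-1 factors through which IL-1β signals to stromelysin and collagenase promoters, and for TATAAA, the TATA box. The stretches shown are the 120 bases before the start, 5′ to 3′, with each motif in capitals; the first 4 are the genes of the cluster that were both measured in detail and hold TGANTCA, and the other 2 are members without it for contrast.
Mmp13: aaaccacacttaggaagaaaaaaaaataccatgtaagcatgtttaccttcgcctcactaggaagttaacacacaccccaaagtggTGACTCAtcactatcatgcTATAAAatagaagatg
Mmp3: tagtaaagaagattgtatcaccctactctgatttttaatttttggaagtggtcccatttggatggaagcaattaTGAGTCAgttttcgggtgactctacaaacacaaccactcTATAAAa
Mmp10: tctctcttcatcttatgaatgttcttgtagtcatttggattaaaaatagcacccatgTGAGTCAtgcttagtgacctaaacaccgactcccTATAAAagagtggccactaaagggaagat
Mmp12: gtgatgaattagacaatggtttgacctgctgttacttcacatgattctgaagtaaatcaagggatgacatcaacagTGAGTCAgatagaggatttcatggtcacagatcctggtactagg
Mmp27: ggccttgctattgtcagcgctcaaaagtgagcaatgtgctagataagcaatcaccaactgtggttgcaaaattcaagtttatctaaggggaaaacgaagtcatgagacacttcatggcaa
Mmp14: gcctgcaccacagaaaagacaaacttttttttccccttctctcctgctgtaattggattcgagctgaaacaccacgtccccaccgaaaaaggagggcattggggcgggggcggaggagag
In order, these lie on the plus strand at chr9:7272394-7272513, chr9:7445702-7445821, chr9:7502222-7502341, chr9:7347254-7347373, chr9:7571276-7571395 and chr14:54431478-54431597, and the Mmp12 stretch belongs to the second of its annotated starts. TGANTCA began 35 bases before the start in Mmp13, 46 in Mmp3, 63 in Mmp10 and 44 in Mmp12. It did not overlap TATAAA in any of them. Of the 10 genes of the cluster 8 held TGANTCA, the exceptions being Mmp8 and Mmp27, against 0 of the 22 other members with a window. The 14 members without a window, among them Mmp2, Mmp9, Adamts4 and Adamts5, all lie outside the cluster and were not searched. Counted by window, 8 of 35 member windows held it, against 7.81% of all 32851 windows in the table. TATAAA was in 11 of the 35 windows, against 13.6% of all. On the same strand and 20 to 40 bases before the start it was in 4 of the 35, against 1.99% of all. It began 29 bases before the start in Mmp10, 16 in Mmp13 and 7 in Mmp3. In Mmp12 it lay 4 bases after the start, outside the stretch shown. All these distances depend on the annotated starts, which were not tested. A match describes these letters only. For the same 4 genes the log2 fold changes given below were under 0 for Mmp13, Mmp3 and Mmp10 and above 0 for Mmp12. The 95% intervals of Mmp3, Mmp10 and Mmp12 span 0, so no difference in direction is shown. A link between the motif and the antibody was not tested.

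The comparison of antibody with IgG asks how neutralising IL-1β alters the lesion. None of the 39 members passed the test: edgeR's quasi-likelihood test with Benjamini-Hochberg adjustment over all 15980 genes kept gave each of them an adjusted p of 0.9997 or more. Over all genes 0% passed, with adjusted p-values of 0.208 and above; DESeq2 and limma-voom, run as alternatives, passed 9 and 2 of all genes and also 0 members. Of the members 1, Mmp13, had an unadjusted p under 0.05, against 3.19% of all genes (2.06% lower and 1.13% higher with the antibody). These counts moved with single animals, and without IgG animal 1 they were 7 members and 9.5% of all genes. Fold changes were below 0, meaning a lower fitted value with the antibody, for 30 of the 39 members, against 52.3% of all genes. It was 27 with total-count scaling, which put Mmp9, Mmp16 and Timp3 just above 0, and 22 with a macrophage marker score as a covariate, against 46.2% and 49.4% of all genes. The median member log2 fold change was -0.13, and the median of all genes was -0.0096. For 0 of the 39 did the animals of the groups fail to overlap, a separation seen for 1.96% of all genes (1.25% lower and 0.713% higher with the antibody). With total-count scaling, 46.9% of the genes at an unadjusted p under 0.05 were lower with the antibody, against 64.6% with the scaling used here. The 95% interval of the log2 fold change had a median half-width of 0.59 for the members and 0.40 for all genes. It stayed within 2-fold either way for 29 of the 39. With 4 animals a group, differences inside these intervals are not excluded. The intervals are unadjusted and are not limits of detection, since Mmp13, whose interval leaves out 0, did not pass the adjusted test either.

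**Figure D1:**
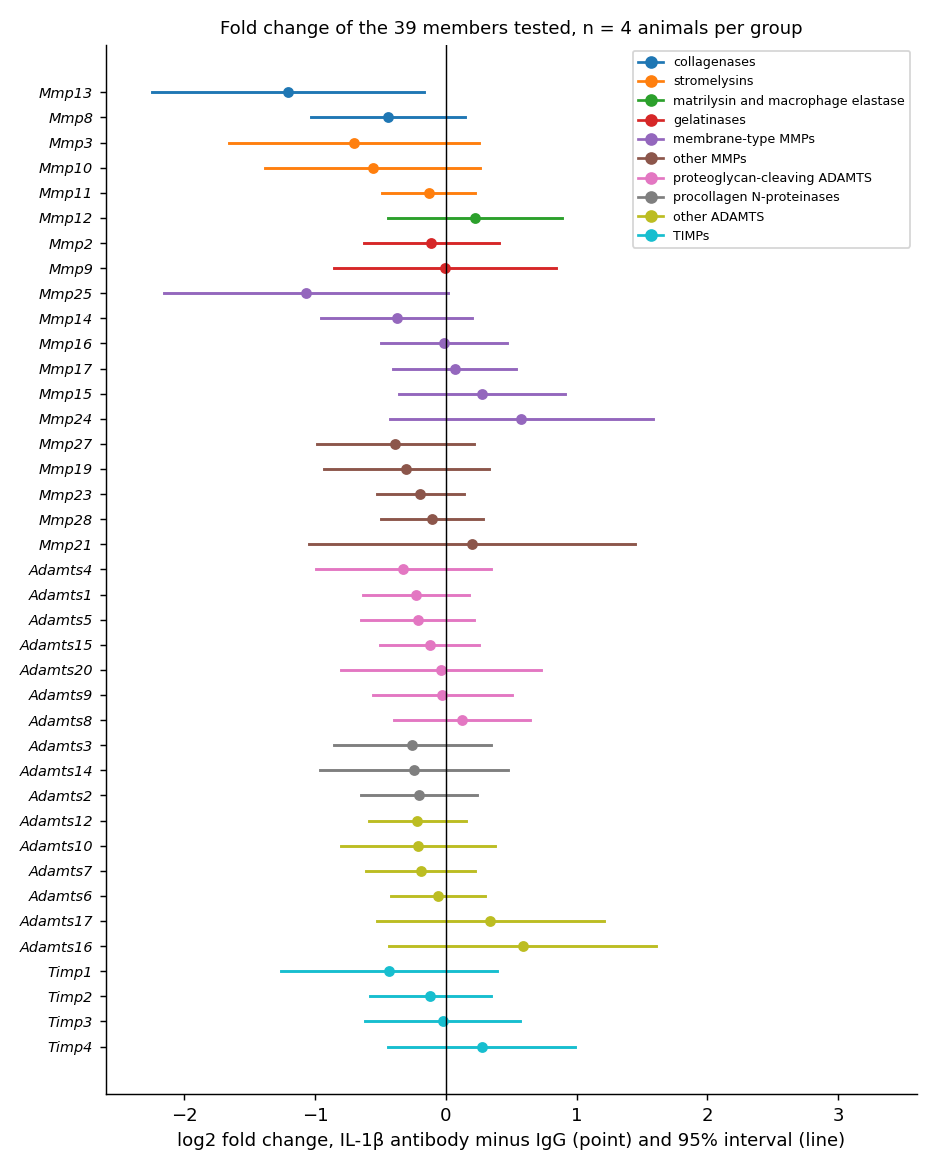
Points give the log2 fold change of antibody minus IgG for each of the 39 members tested and lines its 95% interval, coloured by role. Only the interval of Mmp13 lies wholly below 0, and the other 38 span 0.

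Levels are given below as CPM, counts scaled to the size of each library, and levels of different genes are compared only as RPKM, which also divides by exon length. By RPKM the IgG means ran from 246 for Mmp12 to 0.164 for Adamts16. Mmp12 was followed by Timp2 (201 RPKM), Mmp3 (189), Timp3 (180), Timp1 (90.1), Mmp2 (67.5) and Mmp14 (66.5). The SDs over the 4 IgG animals were 107 RPKM for Mmp12, 46.9 for Timp2, 102 for Mmp3 and 49.0 for Timp3, so the order of these 4 was not separated beyond the spread between animals. The most abundant ADAMTS transcript was Adamts10 at 38.7 ± 16.4 RPKM (SD, n = 4). The 7 members under the count minimum were Adamts18 with 63 counts over the 8 libraries, Adamts19 with 63, Adamts13 with 60, Mmp1a with 8, Mmp1b with 2, and Mmp7 and Mmp20 with 1 each. Adamts18 came closest to it, with 10 or more counts in 3 libraries, and Mmp21 lay just inside it, with 10 or more in 5 libraries.

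**Figure D2:**
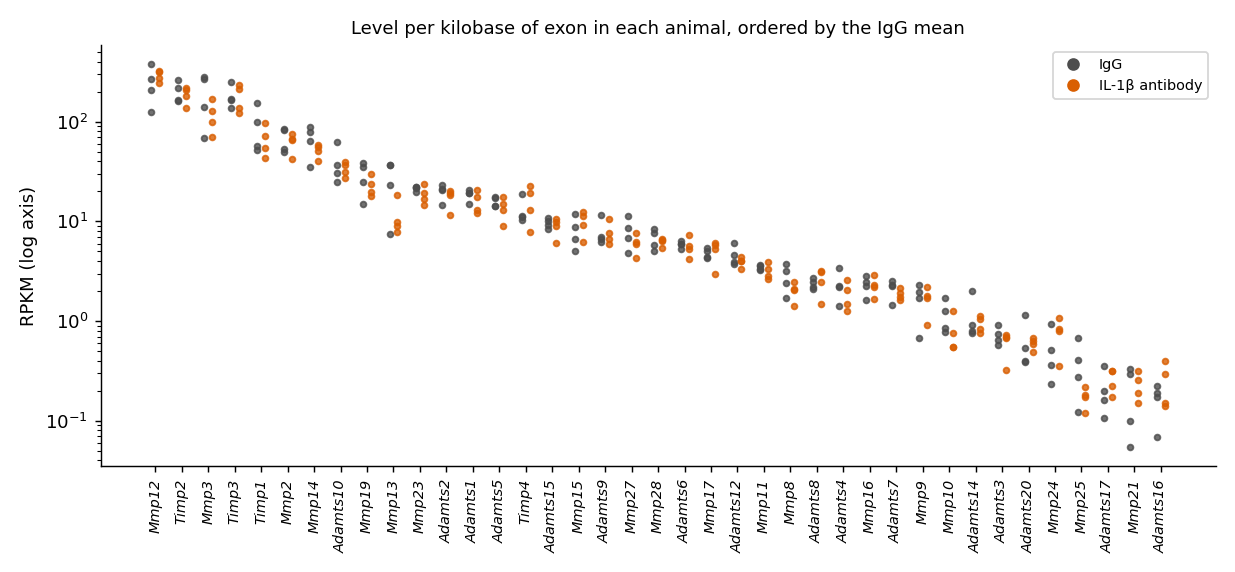
The y axis gives RPKM on a log axis and the x axis the 39 members ordered by their IgG mean, with 1 point per animal, grey for IgG and orange for the antibody. The order runs from Mmp12 at 246 RPKM to Adamts16 at 0.164 RPKM, and the groups overlap for each member.

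The collagenases cut the triple helix of fibrillar collagens. Mmp13, the main interstitial collagenase of rodents, had 62.1, 19.9, 98.8 and 98.7 CPM in IgG animals 1 to 4 and 24.1, 21.0, 26.6 and 49.6 CPM in antibody animals 1 to 4. IgG animals 1, 3 and 4 lay above each antibody animal, while IgG animal 2 was the lowest of the 8, so the groups overlapped. The log2 fold change was -1.21 ± 0.46 (SE; 95% interval -2.25 to -0.16), with an unadjusted p = 0.0277 and an adjusted p of 0.9997 in edgeR's quasi-likelihood test. The unadjusted p was above 0.05 when IgG animal 3, IgG animal 4 or antibody animal 1, 2 or 3 was left out, with values from 0.0663 to 0.0838. It was also above 0.05 with the macrophage marker score as a covariate. Mmp8, the collagenase stored in neutrophil granules, had 4.21, 5.90, 9.09 and 7.73 CPM with IgG and 3.51, 4.98, 5.21 and 6.07 CPM with the antibody, a log2 fold change of -0.44 ± 0.26. IgG animals 3 and 4 lay above the antibody group and the other IgG animals within it. Of 9 neutrophil markers 8 were in the table and 5 passed the count filter, and the summed level of the 8 was 7.79 to 15.7 CPM with IgG and 9.59 to 14.5 CPM with the antibody. Mmp8 did not follow that sum: it was highest in IgG animal 3 (sum 10.6 CPM) and lowest in antibody animal 1 (13.6 CPM). From highest to lowest, the 8 animals stood in the same order for Mmp8 as for Mmp27, its neighbour on the same strand. The cells or transcripts behind the Mmp8 counts were not tested. Mmp1a and Mmp1b, the mouse relatives of human interstitial collagenase, were near the limit of counting.

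The stromelysins have broad substrates and can activate other MMP precursors. Mmp3 had 254, 124, 501 and 483 CPM with IgG and 178, 230, 127 and 302 CPM with the antibody. IgG animals 3 and 4 stood highest, as for Mmp13, and IgG animal 2 was again the lowest. The log2 fold change was -0.70 ± 0.42 (95% interval -1.65 to 0.25). Mmp10, its close relative, had 1.47, 1.34, 2.20 and 2.94 CPM with IgG and 1.32, 0.946, 0.963 and 2.19 CPM with the antibody, a log2 fold change of -0.56 ± 0.37. Its highest value was that of IgG animal 4, and antibody animal 4 lay among the IgG animals. Mmp11, a stromelysin of stromal fibroblasts, had a log2 fold change of -0.13 ± 0.16.

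Mmp12, the macrophage elastase, had the highest IgG mean RPKM of the members, not separated from Timp2, Mmp3 and Timp3 beyond the spread between animals. It had 453, 754, 1375 and 968 CPM with IgG and 878, 988, 1130 and 1154 CPM with the antibody. IgG animal 3 was the highest and IgG animal 1 the lowest of all 8, with the 4 antibody animals between them. The log2 fold change was 0.23 ± 0.30 (95% interval -0.44 to 0.89). The log2 fold change was 0.012 without IgG animal 1 and 0.52 without IgG animal 3. Macrophage markers went the other way: 14 of 14 had a fold change below 0, and their summed level was 4930 to 12907 CPM with IgG and 5979 to 8601 CPM with the antibody. Of these markers Lyz2 made the largest part of the sum, with 2673 of 4930 CPM in IgG animal 1 and 3169 of 5979 CPM in antibody animal 2. Per 1000 CPM of those markers, Mmp12 stood at 91.9, 102, 107 and 91.9 CPM in the IgG animals and at 143, 165, 184 and 134 CPM in the antibody animals. Here every antibody animal lay above every IgG animal, a separation that 0.594% of all genes showed in this direction and Mmp12 alone among the 39 members. In the lower direction it was 0 members, against 0.0313% of all genes. Over single markers the Mmp12 ratio separated the groups for 11 of the 14 and overlapped for Csf1r, Mertk and Cd163. For Fcgr1 the groups were barely apart, with 30.77 as the highest IgG ratio and 30.78 as the lowest antibody ratio. Those 14 ratios share the same animals and the same Mmp12 values, so they are not separate evidence. The share of all genes was not taken for single markers. The ratio of Mmp12 to macrophage markers was chosen after the values had been seen. With the macrophage score as a covariate, the mean log2 CPM of the markers in each animal, the log2 fold change of Mmp12 was 0.76 (unadjusted p = 0.00325, adjusted p = 0.897 in edgeR's quasi-likelihood test).

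The gelatinases digest denatured collagen and basement membrane. Mmp2, made broadly by mesenchymal cells, had 153, 161, 258 and 249 CPM with IgG and 199, 230, 128 and 204 CPM with the antibody, with IgG animals 3 and 4 highest and antibody animal 3 lowest. Its log2 fold change was -0.11 ± 0.23. Mmp9, made by neutrophils, macrophages and osteoclasts, had 6.16, 5.44, 2.13 and 7.36 CPM with IgG and 5.47, 7.01, 5.64 and 2.91 CPM with the antibody, so IgG animal 3, the highest for many other members, was the lowest here. The group means of Mmp9 were 5.27 ± 2.24 and 5.26 ± 1.71 CPM (SD, n = 4), with a log2 interval of -0.85 to 0.84.

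Membrane-type MMPs are anchored at the cell surface. Mmp14, which activates the Mmp2 precursor together with Timp2, had 90.9, 168, 228 and 204 CPM with IgG and 144, 132, 104 and 153 CPM with the antibody. IgG animals 2, 3 and 4 lay above each antibody animal and IgG animal 1 below them all. The log2 fold change was -0.37 ± 0.26. Mmp25, a leukocyte enzyme with a lipid anchor, had 0.411, 2.26, 0.938 and 1.38 CPM with IgG and 0.586, 0.736, 0.613 and 0.405 CPM with the antibody. IgG animals 2 to 4 were the highest and IgG animal 1 lay within the antibody group. The log2 fold change of Mmp25 was -1.07 ± 0.49 (unadjusted p = 0.0537, adjusted p = 0.9997 in edgeR's quasi-likelihood test), and -0.63 without IgG animal 2. Mmp24, best known from the nervous system, had 4.0, 1.57, 1.01 and 2.19 CPM with IgG and 4.59, 3.61, 3.46 and 1.54 CPM with the antibody. Antibody animals 1 to 3 and IgG animal 1 formed the upper values, and the log2 fold change was 0.58 ± 0.45. Mmp15, Mmp16 and Mmp17 had log2 fold changes of 0.28 ± 0.28, -0.01 ± 0.21 and 0.07 ± 0.21.

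Of the MMPs outside these classes, Mmp27 had 7.90, 11.3, 18.8 and 14.1 CPM with IgG and 7.08, 9.74, 10.4 and 12.6 CPM with the antibody, a log2 fold change of -0.39 ± 0.27. IgG animals 3 and 4 were again the highest. Mmp23, a membrane protein with an unusual domain order, had 28.4, 31.1, 31.6 and 31.8 CPM with IgG and 24.0, 34.1, 21.1 and 27.9 CPM with the antibody, a log2 fold change of -0.20 ± 0.15. Its IgG animals differed little from each other and lay within the wider antibody range. Mmp19, an enzyme of basement membrane turnover, Mmp28 and Mmp21 had log2 fold changes of -0.30 ± 0.28, -0.11 ± 0.18 and 0.20 ± 0.56.

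**Figure D3:**
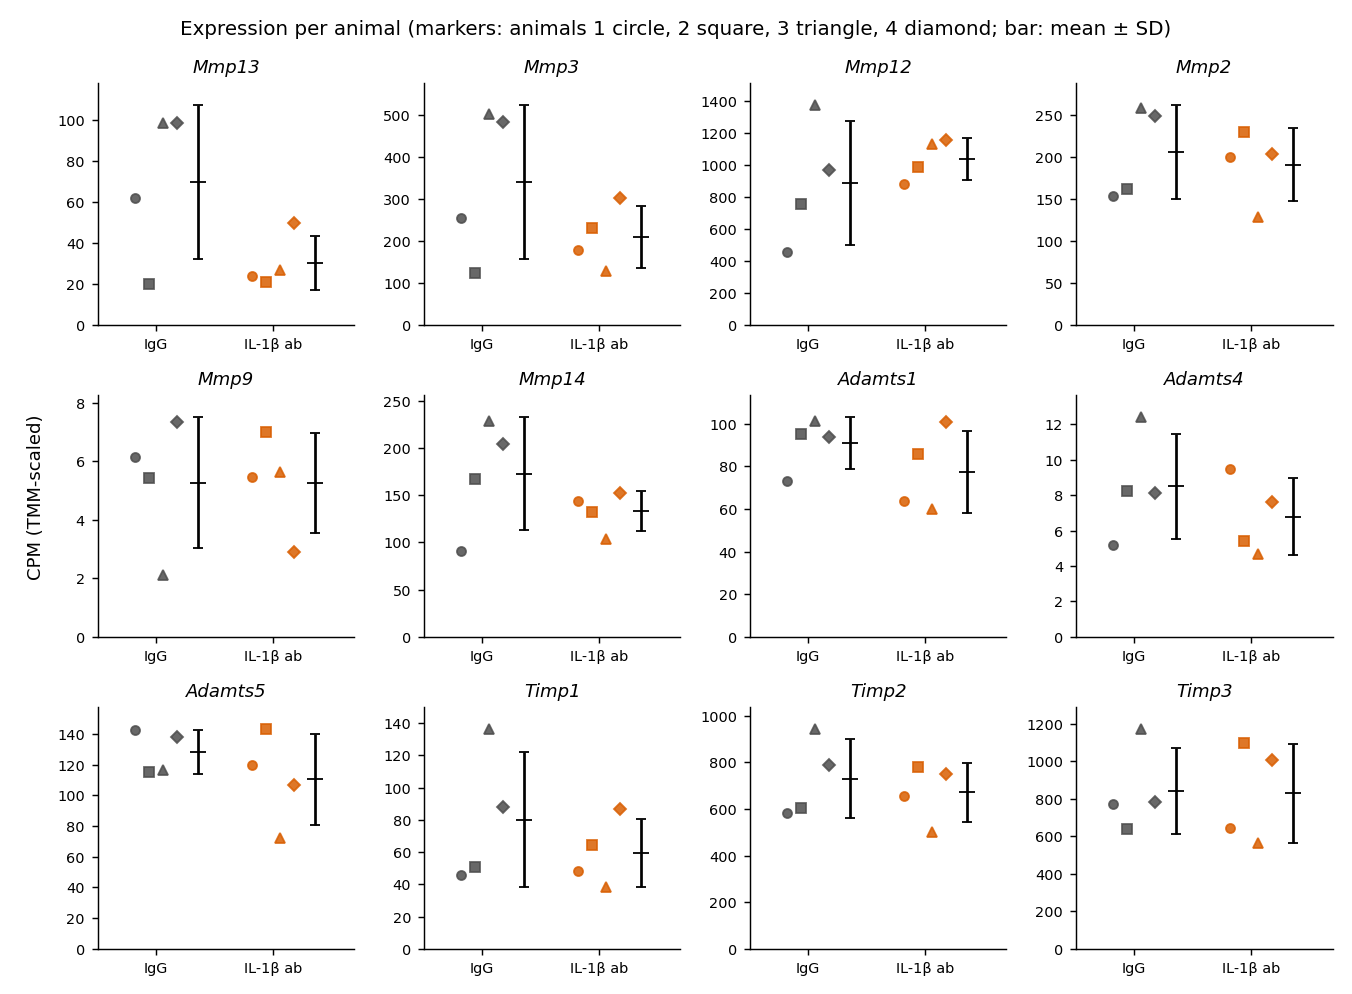
Each panel gives the CPM of 1 member in the 4 IgG animals (grey) and the 4 antibody animals (orange), with the animal's number as the marker shape and the mean ± SD as a bar; the y axes start at 0. IgG animals 3 and 4 stand highest for Mmp13 and Mmp3, and the groups overlap in each panel.

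The proteoglycan-cleaving ADAMTS proteases cut versican and aggrecan. For 6 of the 7 the fold change was below 0, with log2 values from -0.32 to 0.12. Adamts1 had 73.1, 95.1, 101 and 93.8 CPM with IgG and 63.5, 85.6, 60.0 and 101 CPM with the antibody (log2 fold change -0.23 ± 0.18). Adamts4, an aggrecanase that IL-1 induces in cartilage, had 5.20, 8.25, 12.4 and 8.10 CPM with IgG and 9.47, 5.40, 4.68 and 7.61 CPM with the antibody (-0.32 ± 0.30). Adamts5, the other main aggrecanase, had 143, 115, 117 and 138 CPM with IgG and 120, 143, 72.4 and 106 CPM with the antibody (-0.21 ± 0.19). The animals of both groups were interleaved for these 3 genes, and antibody animal 3 was the lowest of the 8 for each. By RPKM, Adamts1 (18.6) and Adamts5 (15.8) were more abundant with IgG than Adamts4 (2.31), with SDs of 2.50, 1.76 and 0.807.

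The procollagen N-proteinases Adamts2, Adamts3 and Adamts14 remove the amino-terminal propeptide of fibrillar procollagens, and their log2 fold changes were -0.21 ± 0.20, -0.26 ± 0.27 and -0.24 ± 0.32. Among the other ADAMTS proteases, Adamts12 had 23.2, 37.5, 24.4 and 28.9 CPM with IgG and 27.4, 20.9, 25.0 and 24.8 CPM with the antibody (-0.22 ± 0.17), with IgG animal 2 highest. Adamts16 had 0.342, 1.11, 0.865 and 0.945 CPM with IgG and 1.46, 0.701, 0.744 and 1.98 CPM with the antibody (0.59 ± 0.46). Antibody animals 1 and 4 lay above the IgG animals for Adamts16 and the other two within their range. Adamts7, which cuts thrombospondin and COMP and is known from vascular smooth muscle, had a log2 fold change of -0.19 ± 0.19, and Adamts10, which binds fibrillin, -0.21 ± 0.26.

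Timp2, Timp3 and Timp1 were among the 5 members with the highest IgG mean RPKM, and Timp4 was lower at 12.9 RPKM. Timp1, the secreted inhibitor induced by inflammation, had 45.9, 50.7, 136 and 87.7 CPM with IgG and 48.0, 64.1, 38.4 and 86.5 CPM with the antibody, and its highest value was that of IgG animal 3. Its log2 fold change was -0.44 ± 0.37. Timp2 had 583, 602, 943 and 788 CPM with IgG and 655, 781, 501 and 751 CPM with the antibody (-0.12 ± 0.21). Timp3, which is bound in the matrix and also inhibits ADAMTS proteases, had 774, 641, 1173 and 785 CPM with IgG and 645, 1100, 567 and 1007 CPM with the antibody (-0.02 ± 0.26). For both, antibody animal 3 was the lowest and IgG animal 3 the highest. Timp4 had a log2 fold change of 0.27 ± 0.32. Summed per length, MMP over TIMP RPKM was 1.14, 1.32, 1.43 and 1.68 in the IgG animals and 1.42, 1.16, 1.72 and 1.32 in the antibody animals, with means of 1.39 ± 0.23 and 1.41 ± 0.23 (SD, n = 4). The ratio therefore differed by less than the spread between animals. With Mmp12 left out of the sum it was 0.82, 0.75, 0.87 and 1.14 in the IgG animals and 0.79, 0.65, 0.74 and 0.73 in the antibody animals, with means of 0.90 ± 0.17 and 0.73 ± 0.060 and groups that overlapped. Mmp12 made up 27.8% to 42.8% of the MMP sum with IgG and 44.4% to 56.7% with the antibody. These ranges do not overlap, but this quantity was not a planned result and no share over all genes was taken for it. The CPM of Mmp12 itself overlapped between the groups.

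Single animals stood out across the members. IgG animal 3 held the highest value of the 8 for 15 of the 39 members and IgG animal 2 for 9, while antibody animal 3 held the lowest for 15 and the highest for 0. The coefficient of variation was larger in the IgG animals for 25 of the 39, with a median of 31.9% against 23.4% in the antibody animals. Assigned counts were 20137336 to 29453014 per library and the share of alignments assigned 24.4% to 34.9%, lowest in IgG animal 2 and antibody animal 3. Markers of smooth muscle, macrophages, fibroblasts and endothelium were present in each library, and of the 14 marker lists none had a marker at 0 in all libraries. The labels also list epithelial cells; of 6 epithelial and thyroid markers 3 passed the count filter, and the 6 summed to 5.47 to 30.4 CPM. Skeletal and cardiac muscle markers summed to 193 CPM in IgG animal 2 and to 10.9 to 17.7 CPM in the other IgG animals. Adipocyte markers summed to 8330 CPM in antibody animal 3 and to 3215 to 4705 CPM in the other 7 animals. The part of either in the member values was not tested. Without IgG animal 2 and antibody animal 3, 2 members were at an unadjusted p under 0.05, against 2.51% of all genes, and the median log2 fold change was -0.013, against 0.0077 over all genes; this setting was chosen after seeing the data.

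Over the 8 animals the members were set against macrophage, smooth muscle and fibroblast marker scores, 117 correlations in all. With Benjamini-Hochberg adjustment over all 47906 correlations of genes with these scores, 0 members and 0 genes passed, with Pearson's r or with Spearman's rho (exact permutation tests, two-sided). Adjusted over the 117 alone 7 passed with Pearson's r and 0 with Spearman's rho, each of the 7 with an unadjusted exact permutation p of 0.00248 or less. For the macrophage score this p was reached by 5 members with a positive r, against 2.59% of all genes, and by 1 with a negative r, against 0.626%. For the smooth muscle score it was reached by 1 member with a positive r, against 0.539% of all genes. Mmp14 had r = 0.94 and rho = 0.95 with the macrophage score (exact permutation test, p adjusted over all genes 0.0857 and 0.163), and Timp1 had r = 0.90 and rho = 0.95 (0.126 and 0.163). For Mmp19, Mmp8 and Mmp27 r was 0.92, 0.91 and 0.91, and rho was 0.90, 0.88 and 0.88. Mmp8 and Mmp27 put the 8 animals in the same order, so they are not separate evidence. Mmp15, a membrane-type enzyme typical of epithelium and endothelium, had r = -0.94 and rho = -0.90 (exact permutation test, p adjusted over all genes 0.0857 and 0.221). Without IgG animals 3 and 4, the animals farthest from the median score, r was 0.86 for Mmp14, 0.74 for Timp1, 0.79 for Mmp19, 0.72 for Mmp8, 0.76 for Mmp27 and -0.90 for Mmp15. With the group means removed, r ranged from 0.89 to 0.94 for the first 5 and was -0.94 for Mmp15. Mmp13 had r = 0.64 and Mmp3 r = 0.72, and without the same 2 animals r was -0.13 and 0.10, so those values rest on IgG animals 3 and 4. Mmp12 had r = 0.57, and 0.90 with the group means removed. With the smooth muscle score Adamts8 had r = 0.91 and rho = 0.79 (exact permutation test, p adjusted over all genes 0.122 and 0.323), with r = 0.73 without antibody animals 2 and 3. With the macrophage score as a covariate the log2 fold changes of Mmp14, Timp1, Mmp19 and Mmp27 turned from below 0 to 0.093, 0.16, 0.20 and 0.038, and that of Mmp15 from above 0 to -0.12. The part of other cell types was not tested.

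**Figure D4:**
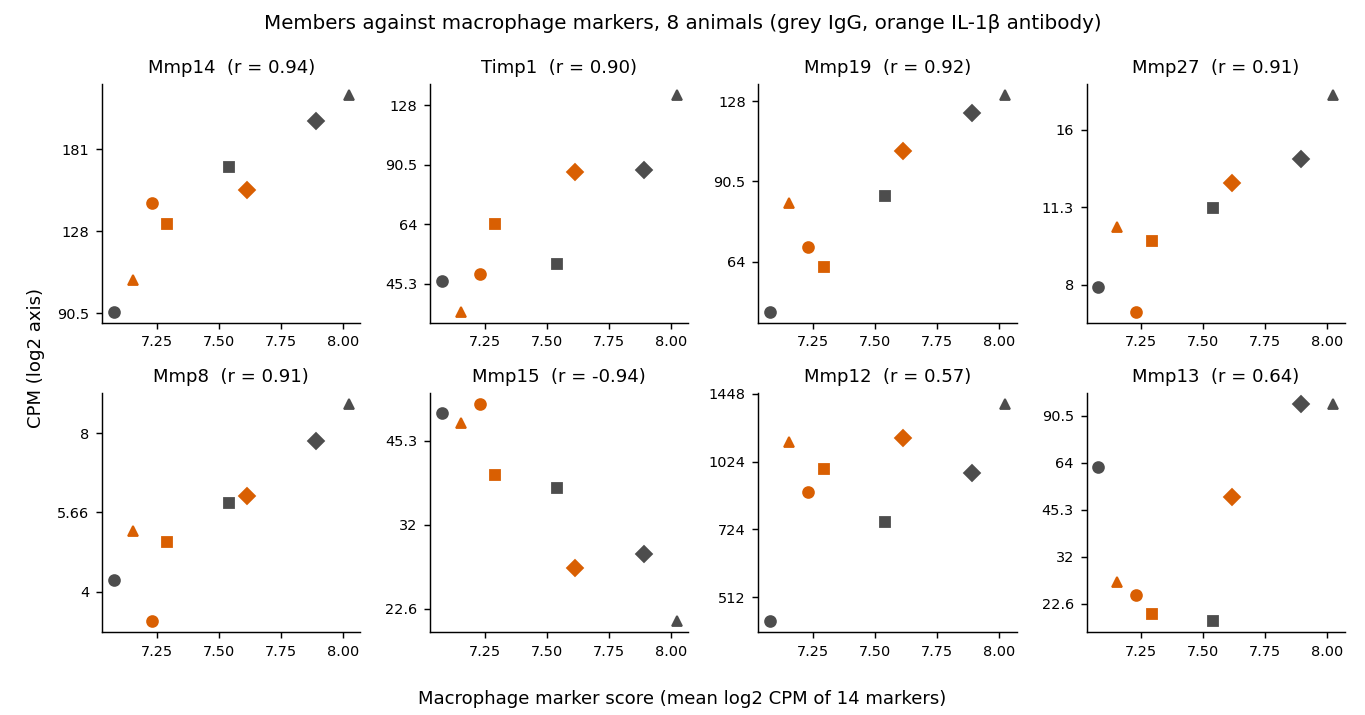
The x axis is the macrophage marker score (mean log2 CPM of 14 markers) and the y axis the CPM of 1 member on a log2 axis, with 1 point per animal, grey for IgG and orange for the antibody. Animals with a higher score have more Mmp14 (r = 0.94) and less Mmp15 (r = -0.94), correlations that did not pass over all genes, while for Mmp12 the antibody animals lie above the IgG animals of like score.

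In the wider protease pathway no gene passed the same test or had an unadjusted p under 0.05. Of 16 genes of plasminogen activation and protease control kept, 0 passed and 11 had a fold change below 0, among them Pcsk5 (-0.18 ± 0.15), a proprotein convertase, and Plat (-0.21 ± 0.18), tissue plasminogen activator. Of 6 ADAMTS-like genes, which lack the protease domain, 0 passed and 5 were below 0, with Adamtsl2 at -0.32 ± 0.18. All 12 substrates of the vessel wall were below 0 and 0 passed, with a median log2 fold change of -0.28. Col3a1 had 4335 ± 1522 CPM with IgG and 3022 ± 512 CPM with the antibody (-0.52 ± 0.30), and aggrecan (Acan) 35.2 ± 13.1 and 25.1 ± 6.79 CPM (-0.49 ± 0.31). Fibroblast markers were below 0 for 10 of 10, with sums of 1608 to 3099 CPM with IgG and 1189 to 2272 CPM with the antibody. Their part in the collagen values was not tested. Of 11 transcription factors that act on MMP promoters 0 passed and 9 were below 0, with a median log2 fold change of -0.072. The 3 lowest are named here. The NF-κB subunit gene Nfkb1 had a log2 fold change of -0.21 ± 0.11, and the AP-1 genes Junb and Fos had -0.28 ± 0.14 and -0.31 ± 0.19.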

How the data were processed

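Total RNA of 8 arterial lesions was sequenced, 4 per group, with groups taken from the sample titles. The deposited values are raw counts per gene symbol; per the file headers, the authors counted exons with featureCounts 1.4.6-p4 in the UCSC annotation of mm9, with no strand option shown, so antisense reads count for the gene they overlap. The submitters' processing notes also name CASAVA, STAR 3.0, Subread and DESeq2, with no roles. Reads at several places are unassigned in the deposited status table, so near-identical genes such as Mmp1a and Mmp1b are uncertain. The exon length deposited by the authors was used for RPKM.

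The counts of 15980 genes kept by filterByExpr (minimum count 10, minimum total 15) were scaled by TMM and tested with edgeR 4.0.16 (R 4.3.3) by the quasi-likelihood F-test with robust=TRUE without covariates. Benjamini-Hochberg adjustment ran over all kept genes, at a threshold of 0.05. Marker scores used log2 CPM with a prior count of 2. DESeq2 1.42.0, limma 3.58.1, other scalings, no filter, a replicate block, a macrophage covariate and leaving out each animal were alternatives, and the scripts were tested on simulated data. The animals are separate, so the edgeR p-values set the group difference against the spread between animals, estimated with information shared across genes. Chi-square over degrees of freedom was at least 26.5 for each pair of libraries, so none was a repeat.

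Members and gene lists were chosen with earlier results of these data known. Values in every animal are given for a panel of 12 members and the 8 others with the smallest p; up to 4 genes per pathway list could be named. Promoter sequences are from RefSeq (GRCm38.p6), whose coordinates are not those of the counts. Proteins were not used here.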

Additional observations from a re-analysis of the deposited data

Results flagged for a closer look

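In 78 groups of 4 animals, 39 members in each of the groups given antibody or IgG, 4 held an animal whose gap to its nearest neighbour, divided by the range, was above Dixon's 95% critical value for 4 samples. Chance gives this in about 1 in 20 groups, and 4 of 78 is close to that rate. IgG animal 2 stood apart for the procollagen N-proteinase Adamts14, with 10.3 CPM against 4.76 CPM in the next IgG animal, and for Adamts9, with 70.0 against 42.6 CPM. That animal also had the lowest share of assigned alignments (24.4%) and the skeletal and cardiac muscle marker sum of 193 CPM, and whether these go together was not tested. Antibody animal 3 stood apart for Adamts3, with 2.49 CPM against 5.14 CPM in the next antibody animal, and it held the lowest value of the 8 animals for 15 members. IgG animal 1 stood apart for Timp4 within its group only, with 26.7 CPM against 16.2 CPM in the next IgG animal. Antibody animals 3 and 4 had 27.1 and 32.2 CPM.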

How the results depend on the processing

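Over 18 alternatives 15 of the 39 members kept the sign of their fold change, and 0 members passed the adjusted threshold in any of them. Mmp13 stayed below 0 in all 18 (log2 fold change -0.85 to -1.65), with an unadjusted p under 0.05 in 12 of them. With the macrophage covariate the members under that p were Adamts16 and Mmp12, and Mmp13 was not among them. Over all genes, 9 passed in DESeq2 and 2 in limma-voom with sample quality weights, which had 2762 genes at an unadjusted p under 0.05 against 509. The count of members at an unadjusted p under 0.05 was 2 in DESeq2 (635 of all genes), without the filter (666), with the macrophage covariate (545) and without the 2 libraries of lowest assigned share (404), and 13 in limma-voom, where 17.3% of all genes were. Without those 2 libraries 1 member did not overlap, against 6.94% of all genes, and the median member log2 fold change was -0.013, against 0.0077 over all genes. With 1 animal left out in turn, 0 to 1 genes and 0 members passed, 310 to 1517 genes and 0 to 7 members were at an unadjusted p under 0.05, 25 to 30 members were below 0, their median ran from -0.20 to -0.059, 0 to 4 did not overlap (4 without IgG animal 1, where 7.86% of all genes did not) and 0 to 3 correlations passed adjustment over the 117. The 7 members, without IgG animal 1, where 9.5% of all genes were at an unadjusted p under 0.05, were Mmp8, Mmp13, Mmp14, Mmp19, Mmp24, Mmp25 and Mmp27.

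The sign turned in the following fits, and the cause was not tested. With total-count scaling Mmp16 was at 0.017, Mmp9 at 0.014 and Timp3 at 0.018. In limma-voom Adamts10 was at 0.10, Adamts14 at 0.011, Adamts20 at 0.49, Adamts8 at -0.023, Adamts9 at 0.20, Mmp17 at -0.037 and Mmp28 at 0.081. With the macrophage covariate Adamts4 was at 0.050, Adamts7 at 0.044, Mmp14 at 0.093, Mmp15 at -0.12, Mmp19 at 0.20, Mmp2 at 0.19, Mmp27 at 0.038, Timp1 at 0.16, Timp2 at 0.13 and Timp3 at 0.18. Without the 2 libraries of lowest assigned share Adamts10 was at 0.079, Adamts14 at 0.11, Adamts15 at 0.017, Adamts2 at 0.040, Adamts20 at 0.42, Adamts3 at 0.097, Adamts6 at 0.11, Adamts9 at 0.049, Mmp21 at -0.049 and Timp3 at 0.030. With 1 animal left out the range was -0.37 to 0.11 for Adamts10, -0.39 to 0.18 for Adamts14, -0.22 to 0.018 for Adamts15, -0.20 to 0.44 for Adamts20, -0.21 to 0.057 for Adamts6, -0.21 to 0.22 for Adamts9, -0.16 to 0.12 for Mmp16, -0.034 to 0.25 for Mmp17, -0.22 to 0.038 for Mmp2, -0.12 to 0.57 for Mmp21, -0.22 to 0.025 for Mmp28, -0.27 to 0.20 for Mmp9, -0.20 to 0.030 for Timp2 and -0.19 to 0.18 for Timp3.

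Animals with the same number did not consistently deviate together (correlations 0.29, -0.34, -0.13 and -0.0012). These values show no pairing by number, but so few animals cannot exclude one. A replicate block gave 361 genes at an unadjusted p under 0.05, 0 genes passing, 1 member at an unadjusted p under 0.05, 28 members below 0 and a median of -0.14, with Adamts20 at 0.092 and Mmp9 at 0.060.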
